A study of Homo sapiens with 6 samples.

Results

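The cell cycle is driven by cyclins and the cyclin-dependent kinases (CDKs) that they activate. In G1, D-type cyclins with CDK4 or CDK6 and E-type cyclins with CDK2 phosphorylate RB1 and its relatives, which releases E2F transcription factors to activate the genes of S phase. In G2 and mitosis, B-type cyclins with CDK1, together with the Polo and Aurora kinases, drive chromosome segregation, and the spindle checkpoint and the anaphase-promoting complex time its end. The 44 genes described here are cyclins, CDKs, CDC25 phosphatases, E2Fs, RB family members, CDK inhibitors, mitotic kinases and their regulators. They were taken by gene symbol from the 37887 symbols of the count table. All 44 were found in the table and all 44 passed the filter on low counts. For description, 14 were placed in a G1 group, 11 in an S group and 19 in a mitotic group. The placement follows no single rule. The E-type cyclins, CDK2, E2F1 and E2F2 are in the S group and E2F3 is in the G1 group, so the border between these groups is partly arbitrary.

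All libraries came from BT-549, a long-established triple-negative breast cancer line of human origin. IRF1, a transcription factor of the interferon response, was silenced by shRNA, and 3 control and 3 IRF1shRNA cultures were sequenced. By the series description all cells carried a doxycycline-inducible IRF1 shRNA vector, with 0.1% DMSO given to the controls and 500 ng/ml doxycycline to the others. The sample titles instead call the first group control shRNA. The treatment labels give DMSO for every control and doxycycline for every IRF1shRNA sample. Silencing therefore cannot be told apart from the drug or, if the titles hold, from a difference between transduced lines. The labels name no second IRF1 hairpin, so effects of the hairpin on other transcripts cannot be told apart from loss of IRF1 either. The transduced cells had been selected in puromycin, and the length of treatment is not given in the sources used here. Nothing in the labels says that the replicate cultures were independent experiments, so p-values measure the spread between these samples, which may be technical.

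Total counts per library ranged from 55143808, in IRF1shRNA replicate 2, to 160436234. Levels are given as CPM, read counts relative to the scaled library total. Of the receptors that define the labelled subtype, ESR1 and PGR were at or below 0.325 CPM in every library and ERBB2 was at 35.0 to 54.8 CPM. Among markers of other cells, CD3E, PECAM1 and LYZ were at 0.144 CPM or less, and PTPRC at 0.298 to 0.757 CPM.

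As a check of the labels, IRF1 itself measured 45.3, 48.1 and 51.5 CPM in the controls (here and below in the order of replicates 1 to 3) against 13.8, 14.9 and 14.6 CPM in IRF1shRNA cells. Every silenced library was below every control, and the IRF1 log2 fold change was −1.74 ± 0.06 (SE, adjusted p = 4.53e-13).

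Silencing was accompanied by lower expression of many, but not all, of the cell cycle genes. Of the 44 genes, 22 were lower and 7 higher in IRF1shRNA cells in edgeR's quasi-likelihood test (adjusted p below 0.05), and 15 did not pass it. In bulk RNA, fewer cells in a phase and less RNA per cell cannot be told apart. Across all 18851 genes tested, 26.4% were lower and 24.1% higher by the same rule, whereas 15.9% of the cell cycle genes were higher. Scaled by library size only, 21 of the 44 were lower and 11 higher, where 22.9% of all genes tested were lower and 27.9% higher. The median log2 fold change of the 44 genes was −0.13, beside −0.0024 over all genes tested. In 23 of the genes every IRF1shRNA library was below every control library, and in 8 every one was above. The corresponding shares over all genes tested were 29.5% and 27.3%. Without any scaling between libraries, the 44 genes together took 0.533% to 0.538% of all counts in the control libraries and 0.481% to 0.484% in the IRF1shRNA libraries.

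**Figure D1:**
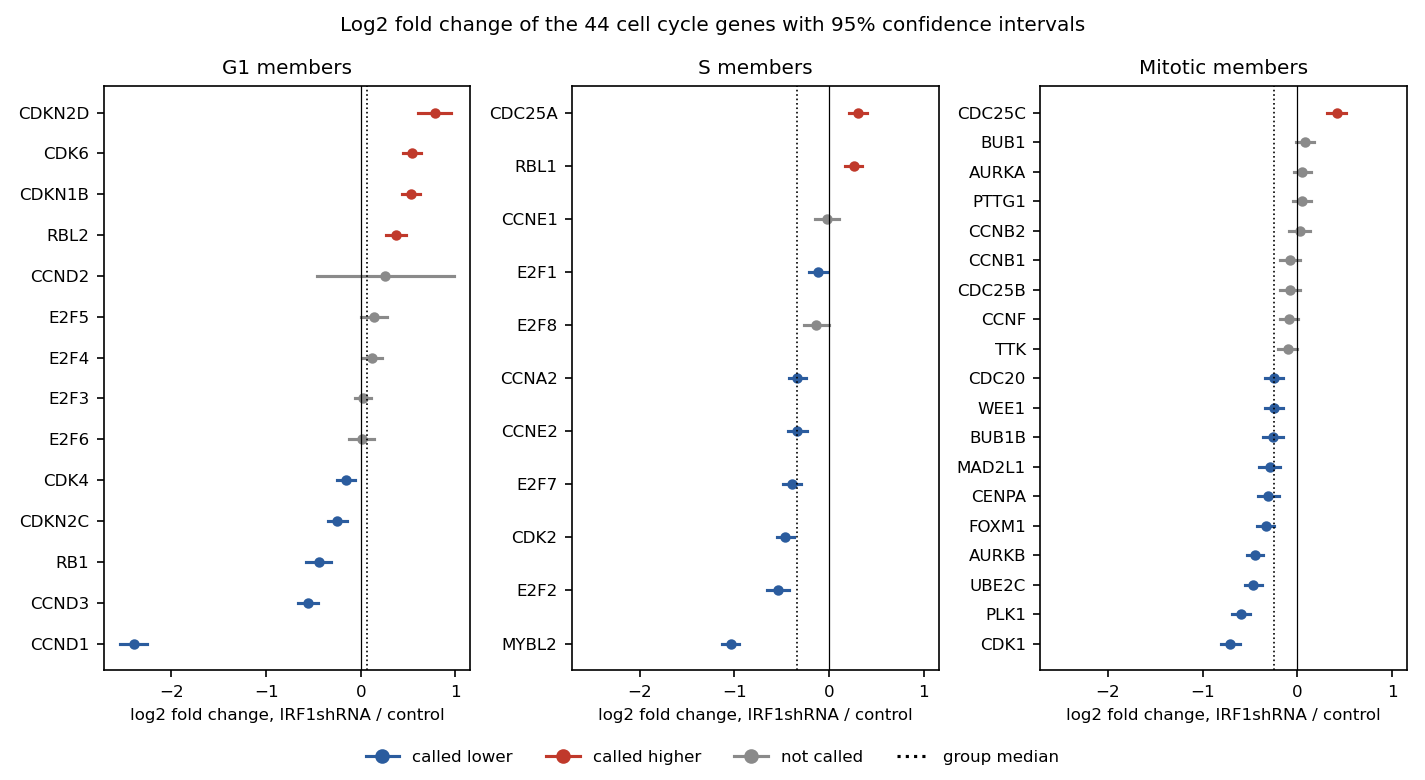
Log2 fold change of each of the 44 genes between 3 IRF1shRNA and 3 control libraries (points, horizontal axis) with its 95% confidence interval (bars), in 3 panels for the G1, S and mitotic groups, and the median of each group as a dotted line. CCND1 at −2.40 and MYBL2 at −1.04 lie farthest to the left, and the G1 panel holds 4 of the 7 genes that were higher.

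The phase groups differed in composition. In the S group, 7 of 11 genes were lower and 2 higher, with a median log2 fold change of −0.33. In the mitotic group, 10 of 19 were lower and 1 higher, with a median of −0.24. The G1 group was mixed, with 5 of 14 genes lower (35.7%) and 4 higher (28.6%), and its median was 0.07. These G1 shares were near those of all genes tested, 26.4% lower and 24.1% higher. Whether the groups differ from each other was not tested. Changes were mostly small, since CCND1 and MYBL2 were the only genes of the 44 past a 2-fold change.

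These medians were then followed in single libraries, as the difference from the control mean of each gene on the log2(CPM + 0.5) scale. In the S group the medians were −0.35, −0.29 and −0.34 in IRF1shRNA replicates 1 to 3, while the controls lay between −0.025 and 0.014. In the mitotic group they were −0.18, −0.17 and −0.27, with controls between −0.029 and 0.0087. The shallow IRF1shRNA replicate 2 thus lay nearest to the controls in both groups. In the G1 group the IRF1shRNA medians of 0.067, 0.069 and −0.021 overlapped the control range of −0.025 to 0.042.

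**Figure D2:**
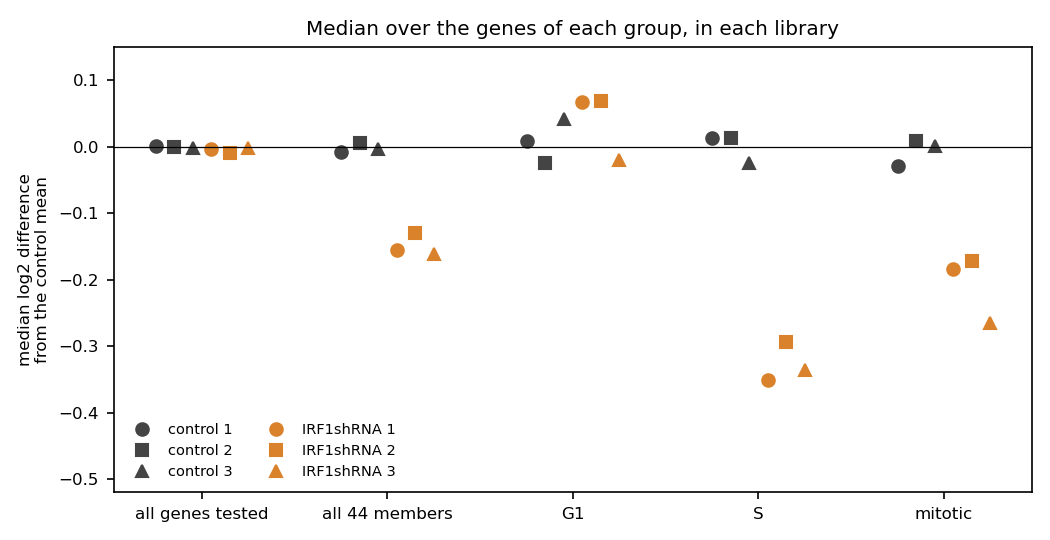
Median difference from the control mean (vertical axis, log2 scale) over all genes tested, the 44 cell cycle genes and each phase group, with 1 point per library. In the S group and the mitotic group the 3 IRF1shRNA libraries sit below the 3 controls, in the G1 group the libraries overlap, and over all genes tested they lie between −0.0089 and 0.0017.

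Among the G1 genes, the D-type cyclins were examined first. These are the cyclins through which growth factor signals reach the cell cycle. CCND1 (cyclin D1; GRCh38 chromosome 11, 69641087 to 69654474) was at 91.2, 97.2 and 83.2 CPM in the controls and at 18.8, 16.1 and 16.4 CPM in IRF1shRNA cells. The groups were far apart, with 18.9% of the control level left after silencing. The CCND1 log2 fold change of −2.40 ± 0.07 (SE, adjusted p = 1.66e-14) was larger in size than that of 99.2% of all genes tested. CCND3 (cyclin D3) was at 106, 108 and 119 CPM in the controls and at 75.8, 72.5 and 77.8 CPM after silencing. It fell by 0.56 ± 0.05 (adjusted p = 4.18e-08), so both abundant D-type cyclins were lower. CCND2 (cyclin D2) was scarce, at 0.212 to 0.508 CPM in all libraries. Its log2 fold change was 0.26 (95% interval −0.47 to 0.98, adjusted p = 0.572), which leaves a change in either direction possible at this depth.

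Divided by exon length, CCND1 and CCND3 were expressed at close levels in control cells, at 18.7 and 19.1 CPM per kb, and at 3.54 and 13.0 CPM per kb in IRF1shRNA cells. The ratio of CCND3 to CCND1 per unit length, which does not depend on how libraries are scaled, was 0.967, 0.926 and 1.19 in the controls and 3.36, 3.74 and 3.95 after silencing. By this measure CCND3 was the more abundant D-type cyclin transcript in every silenced library, whereas in the controls neither was consistently ahead. The lengths used, 4830 bases for CCND1 and 5802 for CCND3, are unions of all annotated exons and not of the transcripts expressed. The order in the controls depends on them, since CCND3 had the higher CPM in every control library. CCND2 stayed at 0.045 and 0.0551 CPM per kb.

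The catalytic partners of the D-type cyclins moved in opposite directions. CDK6 was at 101, 103 and 93.5 CPM in the controls and at 145, 142 and 145 CPM after silencing, and rose by 0.54 ± 0.04 (log2 fold change ± SE, adjusted p = 2.06e-08). CDK4 had a log2 fold change of −0.16 (adjusted p = 0.00607). CDK6 per unit length was 0.186 to 0.217 of CDK4 in the controls and 0.315 to 0.343 after silencing. By this measure CDK4 was the more abundant of the pair in every library, though CDK6 had the higher CPM after silencing. The exons of CDK4 overlap those of TSPAN31 on the other strand over 43.2% of their bases in GENCODE 29, and whether reads were counted by strand is not given in the sources used here, so the CDK4 value is uncertain.

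CDK inhibitors also split. CDKN1B (p27), which binds cyclin-CDK complexes, was at 64.7, 64.1 and 67.5 CPM in the controls and at 95.9, 90.8 and 97.0 CPM in IRF1shRNA cells (log2 fold change 0.53 ± 0.04, adjusted p = 1.74e-08). CDKN2D (p19), an inhibitor of CDK4 and CDK6, was at 11.3, 11.7 and 12.8 CPM in the controls and at 22.7, 17.9 and 20.7 CPM after silencing. With 0.78 ± 0.08 (adjusted p = 4.14e-07), CDKN2D had the largest increase of the 44 genes. CDKN2C (p18), of the same INK4 family, was instead lower (−0.25, adjusted p = 2.52e-04). CDKN2D per unit length was 0.174 to 0.176 of CDKN2C in the controls and 0.315 to 0.400 after silencing. Of the other INK4 genes, which belong to the further lists below, CDKN2A was lower (−0.58, adjusted p = 1.82e-07) and CDKN2B higher (0.23, adjusted p = 0.00107).

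Of the pocket proteins, which hold E2Fs in check, transcripts of RBL2 (p130) and RBL1 (p107) were higher and those of RB1 were lower. Protein was not measured here, so the counts do not show whether working RB1 is present. RBL2, the main pocket protein of quiescent cells, was at 48.1, 44.1 and 48.0 CPM in the controls and at 58.1, 64.0 and 59.1 CPM after silencing (log2 fold change 0.37 ± 0.05, adjusted p = 7.59e-06). RB1 fell by 0.45 ± 0.06 (adjusted p = 1.52e-05), from 30.2 ± 1.67 CPM to 22.2 ± 1.37 CPM (SD, n = 3 each). RBL2 per unit length was 1.32 to 1.43 times RB1 in the controls and 2.20 to 2.74 times after silencing. RBL1, placed in the S group because it is itself an E2F target, was at 91.4, 85.9 and 86.3 CPM and at 104, 108 and 104 CPM (0.26 ± 0.04, adjusted p = 5.32e-05).

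The E2Fs of the G1 group did not pass the test. E2F3 (log2 fold change 0.02, adjusted p = 0.690) and E2F6 (0.01, adjusted p = 0.908) had 95% intervals of −0.07 to 0.11 and −0.12 to 0.14. E2F4 (0.12, adjusted p = 0.0630) and E2F5 (0.14, adjusted p = 0.0809), repressor E2Fs that work with RBL2, passed as higher in 7 and 4 of 14 alternative fits, scaling by library size only among them. No direction is given for these 4 genes.

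**Figure D3:**
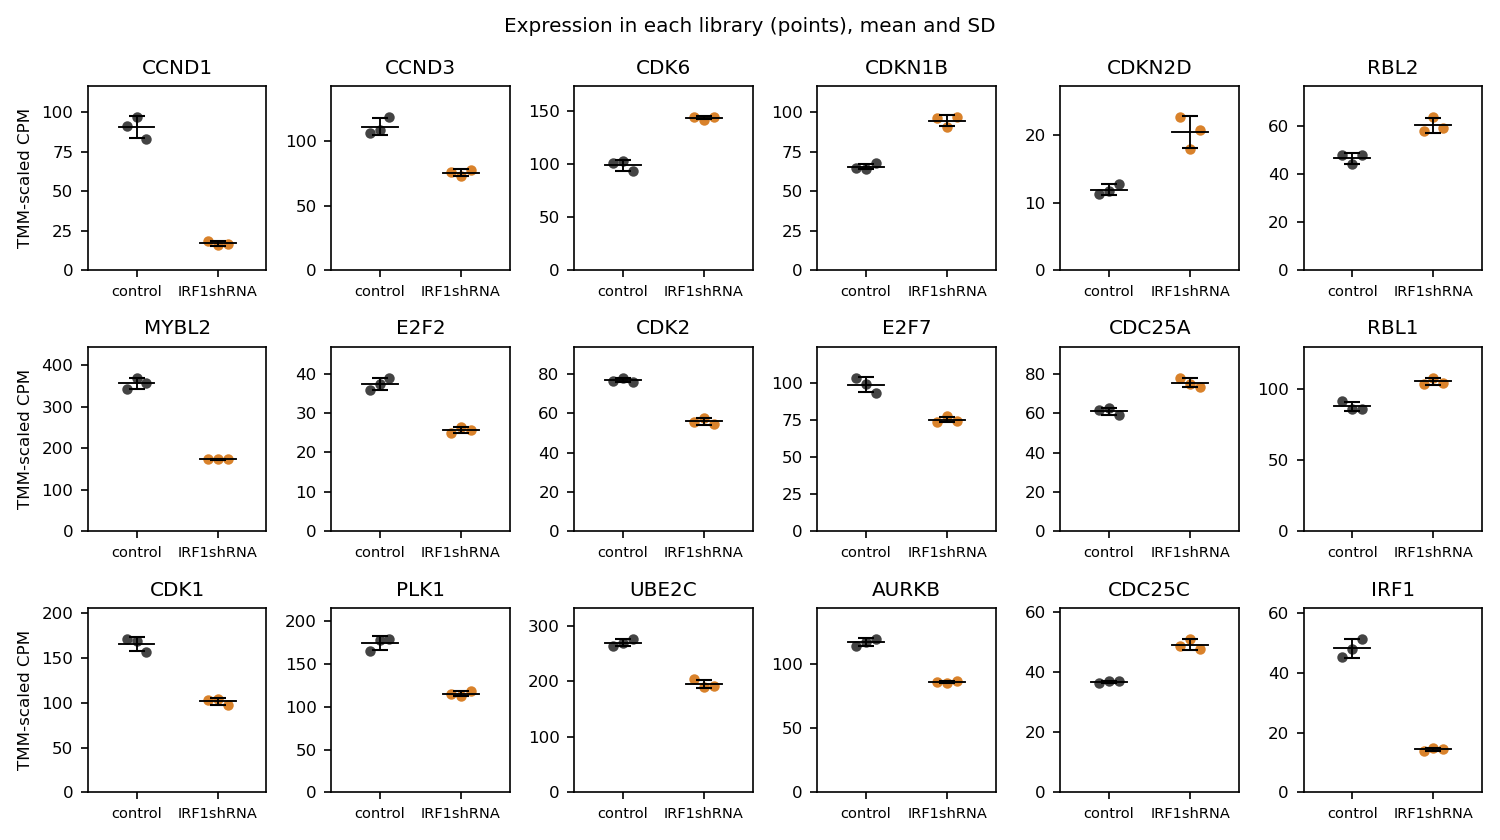
TMM-scaled CPM (vertical axis, from 0) in each of the 3 control and 3 IRF1shRNA libraries (points), with the mean (horizontal line) and SD (bar), for 17 of the cell cycle genes and IRF1. In every panel the groups are separate, but the 17 genes were picked among those that passed the test. Of all 44 cell cycle genes, 13 overlapped between the groups, beside 8149 of all 18851 genes tested. CCND1 in IRF1shRNA cells was at 18.9% of control, MYBL2 at 48.7% and CDK1 at 61.2%, whereas CDKN2D was at 171%.

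Among the S group, MYBL2 (B-Myb; GRCh38 chromosome 20, 43667019 to 43716496) showed the largest decrease. This transcription factor joins the MuvB complex to activate late cell cycle genes. It was at 343, 370 and 357 CPM in the controls and at 174, 173 and 173 CPM after silencing. The silenced libraries were nearly identical, and the MYBL2 log2 fold change was −1.04 ± 0.04 (adjusted p = 2.64e-12). FOXM1, the transcription factor that acts with MYBL2 on mitotic promoters, fell by 0.33 ± 0.04 (adjusted p = 4.73e-06), from 265 ± 9.82 CPM to 210 ± 5.78 CPM.

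CDK2, the partner of E- and A-type cyclins, was at 76.5, 77.9 and 75.8 CPM in the controls and at 55.5, 57.6 and 54.2 CPM in IRF1shRNA cells (log2 fold change −0.46 ± 0.04, adjusted p = 6.49e-08). Its cyclins were unequal. CCNA2 (cyclin A2) was lower, at −0.33 (adjusted p = 2.51e-06), as was CCNE2 (cyclin E2), at −0.34 (adjusted p = 1.05e-05). CCNE1 (cyclin E1) was at 23.3 to 23.9 CPM in the controls and 22.5 to 24.6 CPM after silencing, ranges that overlap, and the 95% interval of its log2 fold change was −0.14 to 0.11. CCNE1 per unit length was 0.859 to 0.882 of CCNE2 in the controls and 1.06 to 1.12 times CCNE2 after silencing. CCNE2 shares 37% of its exon bases with INTS8 on the other strand and carries the same uncertainty as CDK4.

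CDC25A, the phosphatase that activates CDK2, rose. It was at 61.5, 62.5 and 58.9 CPM in the controls and at 78.0, 74.7 and 73.5 CPM after silencing (log2 fold change 0.31 ± 0.04, adjusted p = 1.24e-05).

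Of the 4 E2Fs in the S group, 3 were lower. E2F7, an atypical E2F that represses E2F targets, was at 104, 99.8 and 93.5 CPM in the controls and at 74.1, 77.8 and 74.8 CPM after silencing (−0.39 ± 0.05, adjusted p = 1.57e-06). Its close relative E2F8 was at −0.13 (adjusted p = 0.0892) and did not pass, with silenced libraries at 19.8 to 21.5 CPM just below controls at 21.7 to 23.9 CPM. The activator E2F2 was at 35.9, 37.3 and 38.9 CPM and at 24.96, 26.5 and 25.7 CPM (−0.54 ± 0.06, adjusted p = 2.64e-07). The activator E2F1 was at −0.12 (adjusted p = 0.0323), and this call was lost in 8 of 14 alternative fits, where its value ran from −0.13 to −0.067. E2F1 per unit length was 4.85 to 5.09 times E2F2 in the controls and 6.19 to 7.02 times after silencing.

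The 250 bases before the start of E2F2 are shown because they hold the letters of an E2F site, an element bound by E2Fs. Whether this match acts was not tested. The sequence is from RefSeq on GRCh38.p14, minus strand, chr1:23531234-23531483, 5′ to 3′, and the capitals mark the match to TTTGGCGC.
E2F2: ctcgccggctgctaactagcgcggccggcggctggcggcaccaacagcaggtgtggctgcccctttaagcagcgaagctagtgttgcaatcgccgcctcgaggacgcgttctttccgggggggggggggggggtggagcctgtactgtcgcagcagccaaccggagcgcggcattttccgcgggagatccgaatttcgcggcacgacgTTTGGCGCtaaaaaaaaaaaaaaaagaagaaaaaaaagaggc

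Among the mitotic genes, CDK1 (GRCh38 chromosome 10, 60778331 to 60794852), the kinase that triggers mitosis, showed the largest decrease. It was at 171, 169 and 157 CPM in the controls and at 103, 104 and 97.2 CPM in IRF1shRNA cells (log2 fold change −0.71 ± 0.05, adjusted p = 1.05e-09). The transcripts of its B-type cyclins did not pass the test. CCNB1 (cyclin B1) was at 448, 458 and 470 CPM in the controls and at 430, 466 and 410 CPM after silencing, and CCNB2 (cyclin B2) was at 68.7 to 74.4 CPM and 68.5 to 78.8 CPM. Both overlapped between the groups, with 95% intervals of −0.18 to 0.03 for CCNB1 and −0.09 to 0.14 for CCNB2. CCNB1 per unit length was 4.02 to 4.62 times CDK1 in the controls and 6.43 to 6.87 times after silencing. CCNB1 was lower with an adjusted p of 0.0289 when IRF1shRNA replicate 2, its highest silenced library, was left out (−0.12).

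Regulators of CDK1 activity also diverged. CDC25C, a phosphatase that activates CDK1, was the only gene of the mitotic group that passed the test as higher. Its level went from 36.5, 37.0 and 37.1 CPM to 48.6, 51.1 and 47.7 CPM (log2 fold change 0.41 ± 0.05, adjusted p = 1.03e-06). WEE1, the kinase that opposes it, fell by 0.25 (adjusted p = 1.81e-04). CDC25B was at −0.08 (adjusted p = 0.208) and overlapped between the groups. CDC25C per unit length was 0.119 to 0.130 of CDC25B in the controls and 0.164 to 0.184 after silencing.

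PLK1, the Polo kinase of centrosome maturation and mitotic exit, was at 164, 178 and 179 CPM in the controls and at 115, 112 and 118 CPM after silencing (−0.59 ± 0.04, adjusted p = 6.58e-09). AURKB, the catalytic subunit of the chromosomal passenger complex, was at 114, 117 and 120 CPM and at 85.8, 85.2 and 86.7 CPM (−0.45 ± 0.04, adjusted p = 7.31e-08). AURKA, its spindle pole relative, was at 321, 332 and 324 CPM and at 336, 354 and 325 CPM. These AURKA ranges overlap, and its log2 fold change was 0.05 (95% interval −0.04 to 0.15). AURKA per unit length was 2.07 to 2.16 times AURKB in the controls and 2.87 to 3.18 times after silencing.

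**Figure D4:**
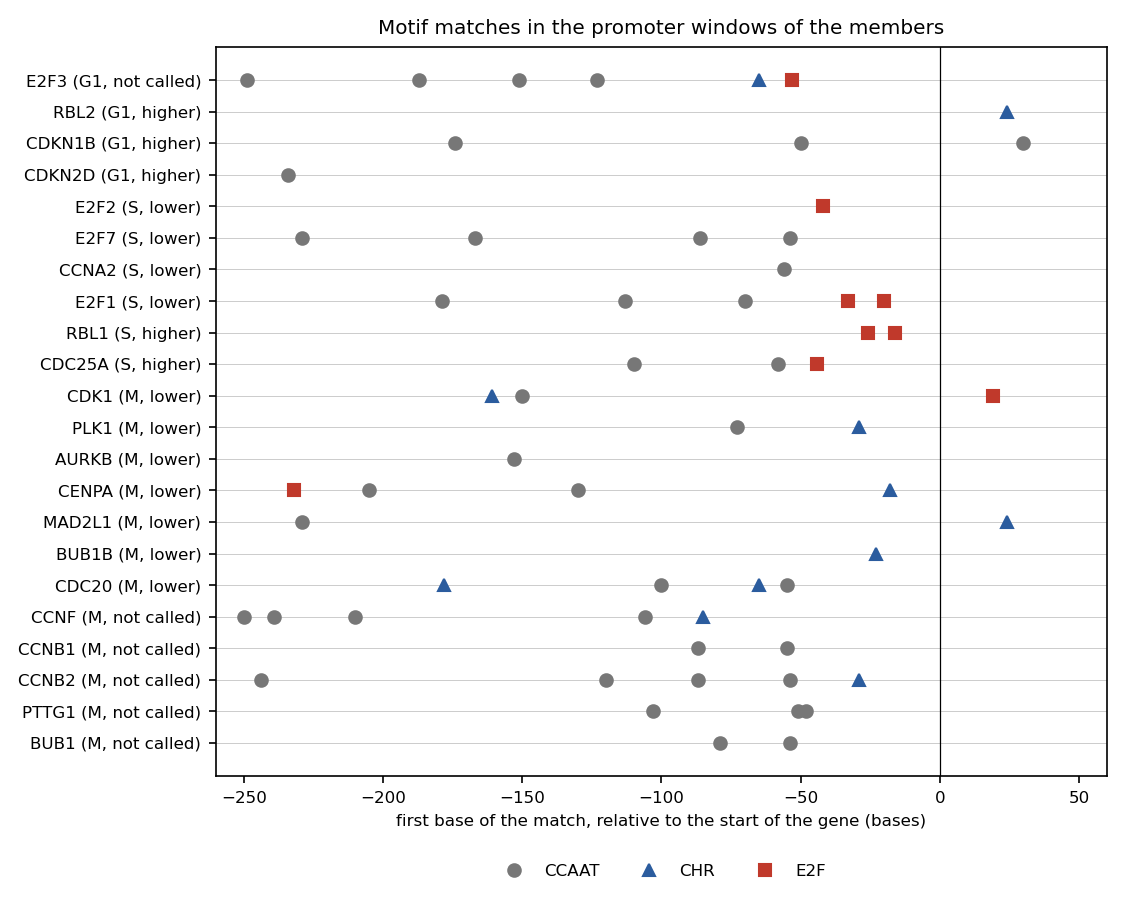
Positions of CCAAT (circles), CHR (triangles) and E2F (squares) matches in the promoter windows of the 22 cell cycle genes that hold any, as bases from the start of the gene (horizontal axis), with genes in rows labelled by phase group (M for mitotic) and call. CHR matches fall in 8 mitotic and 2 G1 genes, and E2F matches in 4 S, 2 mitotic and 1 G1 genes.

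The windows of CDK1 and PLK1, the mitotic genes with the largest decreases, are shown because they match the CHR (cell cycle genes homology region) and CCAAT elements. Such elements are found in promoters that peak in G2 and mitosis. In PLK1, CCAAT at −73 comes before TTTGAA at −29, whereas in CDK1 TTTGAA at −161 comes before CCAAT at −150. Whether these matches act was not tested. Both are 250 bases before the start, from RefSeq on GRCh38.p14, plus strand, 5′ to 3′, at chr10:60778081-60778330 and chr16:23678639-23678888. Capitals mark the CHR element TTTGAA and CCAAT.
CDK1: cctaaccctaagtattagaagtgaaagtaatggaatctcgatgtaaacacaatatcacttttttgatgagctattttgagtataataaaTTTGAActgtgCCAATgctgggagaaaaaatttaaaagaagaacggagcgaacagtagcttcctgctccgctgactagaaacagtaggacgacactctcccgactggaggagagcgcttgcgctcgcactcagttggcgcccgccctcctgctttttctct
PLK1: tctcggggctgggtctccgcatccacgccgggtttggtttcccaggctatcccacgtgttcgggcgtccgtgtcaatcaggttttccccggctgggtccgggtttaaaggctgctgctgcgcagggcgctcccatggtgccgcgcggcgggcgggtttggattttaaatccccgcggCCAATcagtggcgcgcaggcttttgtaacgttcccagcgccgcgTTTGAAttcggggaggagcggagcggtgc

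RefSeq promoter windows, from 250 bases before to 50 after the start, were matched for 33 of the 44 genes by symbol, and were searched on both strands. CCND1, CCND2, E2F5, CCNE2, CDK2, E2F8, WEE1, AURKA, TTK, UBE2C and FOXM1 had no match. A motif found in a window means only that its letters are present. The CHR element was in 8 of 14 mitotic windows, 2 of 11 G1 windows and 0 of 8 S windows, beside 15.4% of all 27305 windows and 10.2% of the 12425 windows of genes tested. An E2F site (TTTGGCGC, TTTCCCGC, TTTGCCGC or TTTCGCGC) was in 4 of 8 S windows, 1 of 11 G1 windows and 2 of 14 mitotic windows, beside 3.33% of all windows and 4.88% of those of genes tested. CCAAT was in 11 of 14 mitotic windows, 4 of 8 S windows and 3 of 11 G1 windows, beside 35.7% of all and 36.2% of those of genes tested. A spaced IRF element, GAAA repeated after any 2 bases, was found in 0 of the 33 windows and in 3.65% of all windows and 2.91% of those of genes tested, which says only that these letters are not there. The elements were shared by genes that were lower and genes that did not pass the test. CHR was in 6 of 16 windows of lower genes, 1 of 7 of higher genes and 3 of 10 of those that did not pass, among them CCNB2 and CCNF. E2F sites were in the lower genes E2F1, E2F2, CDK1 and CENPA, in the higher genes RBL1 and CDC25A and in E2F3, which did not pass.

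Genes of the spindle checkpoint, which delays anaphase until every chromosome is attached, were in part lower. BUB1B (BubR1) had a log2 fold change of −0.26 (adjusted p = 2.58e-04) and MAD2L1 (MAD2) of −0.29 (adjusted p = 1.03e-04). BUB1 was at 0.08 (adjusted p = 0.161) and TTK (MPS1) at −0.10 (adjusted p = 0.0883), and neither passed. BUB1 was higher with an adjusted p of 0.0197 when libraries were scaled by size only, and of 0.0281 under upper quartile scaling.

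Of the anaphase-promoting complex, which marks securin and cyclin B for destruction, the activator CDC20 fell by 0.24 (adjusted p = 2.11e-04). Its ubiquitin-conjugating enzyme UBE2C was at 265, 268 and 277 CPM in the controls and at 204, 190 and 192 CPM after silencing (−0.46 ± 0.04, adjusted p = 8.33e-08). Its target PTTG1 (securin) was at 0.05 (adjusted p = 0.419) and overlapped between the groups. PTTG1 has near-identical copies elsewhere in the genome that may share its reads. CENPA, the histone of the centromere, fell by 0.31 (adjusted p = 8.04e-05), and CCNF (cyclin F) was at −0.09 (adjusted p = 0.113).

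Other genes of the cell cycle were then examined in 4 further lists of 60 genes, all tested. Of these, 23 were lower (38.3%) and 9 higher (15%), beside 26.4% lower and 24.1% higher among all genes tested. The list of 15 further CDK regulators held 8 lower and 2 higher genes. Ranked by adjusted p, it was led by CCNG2 (cyclin G2; log2 fold change −1.31), CDKN1A (p21; −1.06) and CCNG1 (cyclin G1; −0.45), with 9.94e-12, 1.32e-10 and 1.65e-07. CDKN1A was at 40.7, 42.9 and 44.2 CPM in the controls and at 21.4, 19.0 and 20.7 CPM after silencing, so p21 and p27 transcripts changed in opposite directions. CDKN1B per unit length was 1.62 to 1.73 times CDKN1A in the controls and 4.86 to 5.17 times after silencing.

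Of 21 kinetochore and spindle genes, 10 were lower and 2 higher, with a median of −0.15. The 2 higher genes were CENPE (log2 fold change 0.28, adjusted p = 6.27e-04) and CENPF (0.26, adjusted p = 3.62e-04). SPC24, a subunit of the NDC80 complex, fell by 0.97 (adjusted p = 1.22e-11), CDCA8 (borealin) by 0.34 (adjusted p = 2.21e-06) and CEP55 by 0.25 (adjusted p = 1.76e-04). CDCA8 is a partner of AURKB in the chromosomal passenger complex. Of 17 genes of the anaphase-promoting complex and its partners, 4 were lower (23.5%), 2 higher (11.8%) and 11 did not pass. Both shares were below those of all genes tested, 26.4% and 24.1%. Those with the smallest adjusted p-values were ANAPC13 (−1.15, adjusted p = 3.41e-11), UBE2S (−0.42, adjusted p = 2.21e-05) and ANAPC16 (0.32, adjusted p = 2.97e-05). ANAPC13 shares 13% of its exon bases with CEP63 on the other strand. UBE2S and UBE2C, the pair of conjugating enzymes that serve this complex, were therefore both lower. Of 7 E2F and MuvB partners, 1 was lower and 3 higher, with LIN9 at −0.38 (adjusted p = 2.64e-05), RBBP4 at 0.17 (adjusted p = 0.00656) and LIN52 at 0.24 (adjusted p = 0.0113). RBBP4 shares 18% of its exon bases with SYNC on the other strand.

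In addition to CDK4 and CCNE2, 7 of the 44 genes share over 10% of their exon bases with another gene in GENCODE 29, namely E2F5, FOXM1, CDK2, CCND2, PLK1, CCND1 and BUB1B, and their counts are uncertain to that extent. For CCND1 the overlap is with LTO1 over 10.3% of its exon bases.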

How the data were processed

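RNA-seq libraries were made with TruSeq Stranded mRNA kits. The deposited values are whole-number counts for each gene symbol, with no normalization by the authors. The submitters' processing notes name STAR 2.7.9a, featureCounts, DESeq2 1.24.0 and GRCh38.p7. Annotation and strand setting are not given in the sources used here. Among values of 2 to 11 counts, 72.1% to 75.2% per library were even, so read mates may have been counted separately. Groups and columns were matched by sample title. Genes passing filterByExpr (minimum count 10) were tested with edgeR 4.0.16 (R 4.3.3) by the quasi-likelihood test, with group as factor, TMM scaling and Benjamini-Hochberg adjustment over 18851 genes. Expression is TMM-scaled CPM. A floor of 3 counts equals 0.0182 to 0.054 CPM. Intervals are 95%. The method was tested on simulated data in which far fewer genes changed than were called here. The simulation therefore did not test the choice of scaling. Replicates differed beyond sampling noise (chi-square per degree of freedom 5.65 to 13.9 on halved counts). Exon lengths are unions of GENCODE 29 exons on GRCh38, so levels per unit length compared between genes depend on which transcripts were expressed.

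The genes were taken by symbol with no threshold on a measured value, but they, the phase groups, lists, motifs and rules were chosen with earlier results of these data known. One marker of other cells is not reported here. Per-library values are given for the 4 genes of each phase group with the largest absolute log2 fold change among those passing the test, for all that rose and for IRF1, and for others where a comparison uses them. Promoters were printed for the 3 genes passing the test with the largest absolute log2 fold change that had a CHR or E2F match. In each further list the 3 genes with the smallest adjusted p were named, and CDKN2A, CDKN2B, CENPE and CENPF were added for comparison. The ratios between gene pairs were chosen after their values were seen. Where a gene had several promoter windows, the first listed was used. Alternatives were DESeq2 1.42.0, other scalings and filters, leaving out replicates, a replicate block, halved counts, a threshold of 0.01 and glmTreat against a 1.2-fold change.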

Additional observations from a re-analysis of the deposited data

How the results depend on the processing

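Of the 29 cell cycle genes that passed the test, 28 passed it in the same direction under all 14 alternatives run for single genes, E2F1 being the exception, and 8 of the 15 others passed under none. E2F4, E2F5, AURKA and BUB1 passed as higher in some of these fits, and CCNB1, CCNF and TTK as lower. The glmTreat test against a 1.2-fold change called 11 of the 44 genes lower, with 3 in the G1, 4 in the S and 4 in the mitotic group, and 5 higher, with 4 in the G1 and 1 in the mitotic group, beside 14.7% lower and 11.1% higher among all genes tested. It called 0 S genes higher (0 at an unadjusted p under 0.05 by glmTreat, and 2 by DESeq2 against no change), and of the 60 further genes 12 lower and 0 higher (1 higher unadjusted, and 8 higher by DESeq2). DESeq2 called 15.6% of the 27846 genes in its fit higher. A threshold of 0.01 left 5 of the 60 further genes higher, beside 18.5% of all genes tested. Library size only gave 11 genes higher, of which 3 were mitotic, and upper quartile scaling gave 2 mitotic genes higher. Among all genes tested, 27.9% and 27.4% were higher in these fits. Under these scalings, in that order, medians were −0.075 and −0.082 for the 44 genes, 0.12 and 0.11 for G1, −0.28 and −0.29 for S, and −0.19 and −0.20 for mitotic genes, as the median of all genes moved to 0.049 and 0.041. A filter of 1 CPM in 3 samples or more, which removed CCND2, gave −0.11 for the genes left.

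Leaving out 1 replicate at a time, the median of the 44 genes ranged from −0.14 (without IRF1shRNA replicate 2) to −0.12 and that of the G1 group from 0.022 (without IRF1shRNA replicate 1) to 0.075. Of the 60 further genes, 5 to 11 were higher, with 5 without control replicate 2 and without IRF1shRNA replicate 1. Among all genes tested in these fits, 20.2% to 23% were higher.

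The log2 fold change of CCNE1 changed sign under library size only (0.032), upper quartile scaling (0.025) and the 1 CPM filter (0.0056). CCNE1 (0.0052) and CCND2 (−0.026) changed sign without IRF1shRNA replicate 1, and E2F6 (−0.0096) and CCNB2 (−0.034) without IRF1shRNA replicate 2. Leaving out single replicates, values ranged from −0.051 to 0.0052 for CCNE1, −0.026 to 0.56 for CCND2, −0.0096 to 0.027 for E2F6 and −0.034 to 0.062 for CCNB2. None of these 4 genes passed the test in any fit. The cause was not tested.

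The deviations of same-numbered samples correlated at −0.0543, 0.0435 and 0.0731, and 2 of 3 controls correlated best with their own number, so the numbers were not taken as pairs. With the replicate number as a block, 22 genes were lower and 8 higher, E2F4 being added. The block medians were −0.13 for the 44 genes, 0.069 for G1, −0.33 for S and −0.24 for mitotic genes. With the block, 24 further genes were lower and 9 higher, beside 26.4% lower and 23.8% higher among all genes tested.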
